A study of Mus musculus with 13 samples.

Results

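Srf, Myocd, Synpo2, Pgm5, Flna, Vcl and Tpm1 encode regulators of the smooth muscle gene programme and proteins that tie the actin cytoskeleton to the cell membrane. These 7 genes were chosen by name, out of 15019 genes tested, and followed through 3 regions of the mouse embryo (bladder, urogenital sinus and urethra) and a newborn reference. They are represented by 16 probe sets (groups of short oligonucleotides on the array) whose annotation names a single gene, and all 16 passed the filter on low values. The probe set with the highest mean over the 13 arrays stands for each gene, and the other 9 were used as a check.

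Smooth muscle cells contract by sliding actin and myosin filaments that are anchored at dense bodies in the cytoplasm and at dense plaques on the membrane. Serum response factor (SRF) is a DNA-binding protein that recognises a short sequence called the CArG box and switches on cytoskeletal and contractile genes. Myocardin, found in cardiac and smooth muscle, binds SRF and strongly raises its activity on those genes. In the embryonic bladder and urethra, the mesenchyme around the epithelium forms the layers of smooth muscle that later store and expel urine.

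The region samples came from embryos of FVB/N females mated to SMGA/EGFP transgenic males, in which the promoter of Actg2, the smooth muscle gamma-actin gene, drives the green fluorescent protein EGFP. All were taken at embryonic day 14 (Theiler stage 21 or 22), were of unknown sex and were not pooled. Bladder (3 arrays, replicates 2, 6 and 8) and urethra (3 arrays, replicates 1, 2 and 6) were dissected as fluorescent tissue, and the sinus (4 arrays, replicates 1, 2, 6 and 7) as the dark tissue between them. The dissection itself thus separates tissue by the activity of a smooth muscle promoter, and the direction of smooth muscle genes between these regions is not independent of it. The reference was RNA from whole wild-type FVB/N mice at postnatal day 1 (Theiler stage 27), pooled from 4 males and 4 females and run on 3 arrays. RNA of all groups was amplified in 2 rounds before hybridization to Affymetrix MOE430 arrays. The labels do not say whether region arrays came from separate embryos, so the spread behind each p-value is that between these arrays and may be technical.

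All values are log2 intensities, differences are log2 differences with their standard error (SE), and called means an adjusted p under 0.05 (limma, two-sided, Benjamini-Hochberg over the 15019 genes). The number of arrays limits the precision. Median intensity ran from 142 to 238 in the bladder, from 259 to 389 in the sinus and from 221 to 378 in the urethra. The 3' over the 5' signal of beta-actin, which is high where RNA was short, gave log2 ratios that were highest on bladder replicate 8 (4.04) and urethra replicate 1 (3.42) and between 1.21 and 2.72 on the other 8 region arrays. Summed intensity of 6 smooth muscle markers was 16.08 to 16.41 (log2) for bladder arrays and 16.04 to 16.50 for urethra arrays, against 12.48 to 14.75 in the sinus, where replicate 7 was highest. Of the other marker lists, 5 endothelial markers had log2 sums of 13.53 to 13.76 (bladder) and 12.55 to 12.78 (sinus). Among them Kdr and Tek lay higher on every bladder array than on every sinus array, while Pecam1, Cdh5 and Tie1 overlapped. The log2 sums of 5 neuronal and glial markers were 9.58 to 12.31 (bladder) and 10.40 to 15.01 (sinus). The part of these measures in the results was not tested.

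The stretches upstream of Srf and Vcl are shown because they held the only CArG boxes among the members' promoter windows. RefSeq windows of 300 bases (250 before the transcription start and 50 after it, assembly GRCm38.p6) were given for 6 of the 7 genes, all but Myocd. The 250 bases before each start are printed 5′ to 3′ on the strand of the gene, with CArG boxes in capitals:
Srf, chr17:46556163-46556412, minus strand: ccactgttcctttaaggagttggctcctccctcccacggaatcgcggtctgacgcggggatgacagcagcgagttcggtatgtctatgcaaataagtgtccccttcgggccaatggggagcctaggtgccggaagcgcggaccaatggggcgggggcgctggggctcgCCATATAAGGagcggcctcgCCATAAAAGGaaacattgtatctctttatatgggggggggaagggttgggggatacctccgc
Vcl, chr14:20929148-20929397, plus strand: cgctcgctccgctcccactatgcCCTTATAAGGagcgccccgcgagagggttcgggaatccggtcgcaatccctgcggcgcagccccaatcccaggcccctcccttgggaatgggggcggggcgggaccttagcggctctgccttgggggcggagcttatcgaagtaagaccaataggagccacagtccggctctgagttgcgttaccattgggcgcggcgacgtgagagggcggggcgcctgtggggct
Srf held 2 boxes, CCATATAAGG from 82 to 73 bases before the start and CCATAAAAGG from 62 to 53 bases before it. Vcl held 1 box, CCTTATAAGG, from 227 to 218 bases before the start. The search was for the CArG box without mismatches, a pattern that is its own reverse complement, so it covers both strands, and 1.63% of all 32851 windows held at least 1 match. No match was found in the windows of Synpo2, Pgm5, Flna and Tpm1, which says only that the pattern is not within these 300 bases. A match is a description of the sequence and no evidence of binding.

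The bladder was compared with the sinus first, to see which of these genes differ between fluorescent and dark tissue. Synpo2 and Vcl, both of which encode proteins that attach actin filaments, were higher in the bladder. The other 5 genes had higher means in the bladder without passing the test. Called higher were thus 2 of 7 members, beside 0.812% of all genes called higher and 2.54% called in either direction. At an unadjusted p under 0.05, 6 of 7 passed, all but Myocd, beside 17.2% of all genes. For 5 of the 7 (Srf, Synpo2, Pgm5, Vcl and Tpm1) every bladder array lay above every sinus array, which held for 7.28% of all genes. The median difference was 1.18 over the members and -0.19 over all genes tested. In tissue samples such as these, fewer cells of a type and less RNA per cell cannot be told apart.

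**Figure D1:**
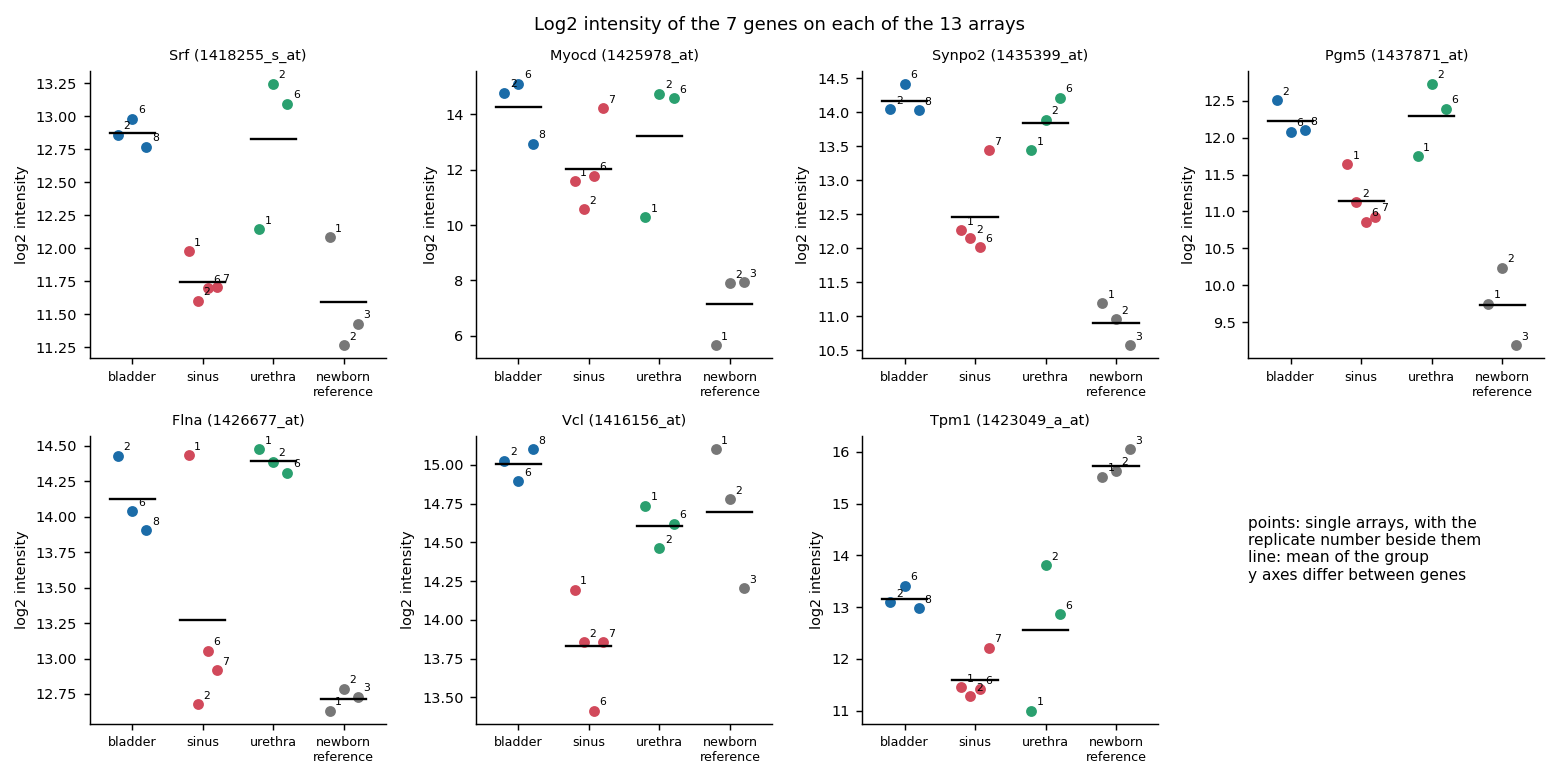
Log2 intensity (y axis, scaled separately for each gene) of the 7 genes on every array, grouped by region and newborn reference (x axis), with points for single arrays labelled by replicate number and a line at each group mean. The 3 bladder arrays lie above all 4 sinus arrays for Srf, Synpo2, Pgm5, Vcl and Tpm1, sinus replicate 7 (14.22) lies within the bladder range for Myocd, and sinus replicate 1 (14.43) lies level with the highest bladder array for Flna.

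Srf, the DNA-binding partner in the pair of regulators, stood at 12.86, 12.98 and 12.77 on bladder replicates 2, 6 and 8 and at 11.98, 11.60, 11.70 and 11.70 on sinus replicates 1, 2, 6 and 7. Urethra replicates 1, 2 and 6 gave 12.14, 13.25 and 13.09. Every bladder and every urethra array lay above every sinus array, with urethra replicate 1 closest to the sinus. The bladder mean was 12.87 ± 0.11 (SD, n = 3) and the sinus mean 11.74 ± 0.16 (SD, n = 4), a difference of 1.13 (SE 0.27, adjusted p = 0.0590) that was not called. The interval of that difference ran from 0.53 to 1.72 at 95%, before adjustment. The dimmer of the 2 Srf probe sets (1418256_at) averaged 9.02 in bladder tissue against 8.88 in the sinus and differed by 0.13 (SE 0.44).

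Myocd, the coactivator, varied more between arrays of the same region than any other member. It stood at 14.78, 15.11 and 12.93 in the bladder, at 11.58, 10.57, 11.79 and 14.22 in the sinus, and at 10.28, 14.74 and 14.58 in the urethra. Sinus replicate 7 lay above bladder replicate 8, and urethra replicate 1 lay under every sinus array. The bladder mean of 14.28 ± 1.17 (SD, n = 3) exceeded the sinus mean of 12.04 ± 1.55 (SD, n = 4) by 2.24 (SE 1.17, adjusted p = 0.356), with a 95% interval from -0.37 to 4.85. The arrays fall into groups by the style of their sample titles, whose meaning the labels do not give. All 3 urethra arrays have a style that no bladder or sinus array has, so among the regions the urethra and its title style cannot be told apart. Within the style that holds 2 bladder and 3 sinus arrays the Myocd difference was 3.63, and within the style that holds 1 of each (bladder replicate 8 and sinus replicate 7) it was -1.28. For the other 6 members the bladder was above the sinus within both styles.

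The dimmer Myocd probe set (1425808_a_at) was at the floor of the scale, which was set at 5.65, on 3 of the 4 sinus arrays and above it on all bladder and urethra arrays. It stood at 9.00, 8.47 and 7.22 in the bladder, at 7.39, 9.98 and 7.89 in the urethra, and in the sinus at 5.65 on replicates 1, 2 and 6 and 7.15 on replicate 7. Sinus replicate 7 was again the highest of its group, and no bladder or urethra array fell within the sinus range. Only 5 arrays, all of bladder or urethra, exceeded the filter level of 7.39, and bladder replicate 8 did not. The probe set was thus kept only through the regions where it was high, so the lack of overlap is no support for a difference. The size of any difference from the sinus is set by the floor here, so none is given.

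Synpo2 encodes synaptopodin-2 (myopodin), an actin-bundling protein of muscle. Its log2 intensities were 14.04, 14.42 and 14.03 in the bladder, 12.26, 12.14, 12.01 and 13.44 in the sinus, and 13.44, 13.89 and 14.22 in the urethra. Sinus replicate 7 stood more than 1 log2 unit above the other sinus arrays and level with urethra replicate 1, and all bladder arrays lay above it. The bladder mean of 14.16 ± 0.22 (SD, n = 3) exceeded the sinus mean of 12.46 ± 0.66 (SD, n = 4) by 1.70 (SE 0.35, adjusted p = 0.0388), which is 3.24-fold. The other 3 Synpo2 probe sets had differences of 0.62, 0.84 and 0.24 in the same direction, none of them called.

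Pgm5 encodes aciculin, a relative of phosphoglucomutase that sits at cell adhesions of muscle, and has a single probe set. It stood at 12.51, 12.08 and 12.10 in the bladder, at 11.64, 11.12, 10.86 and 10.93 in the sinus, and at 11.75, 12.73 and 12.39 in the urethra. No sinus array reached the range of the bladder or the urethra, although sinus replicate 1 and urethra replicate 1 were close. The difference between bladder (12.23 ± 0.24, SD, n = 3) and sinus (11.14 ± 0.35, SD, n = 4) was 1.09 (SE 0.29, adjusted p = 0.0894, 95% interval 0.44 to 1.74), which was not called.

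Flna encodes filamin A, which crosslinks actin filaments and links them to membrane receptors. It gave 14.43, 14.04 and 13.90 in the bladder, 14.43, 12.68, 13.06 and 12.92 in the sinus, and 14.48, 14.39 and 14.31 in the urethra. Sinus replicate 1 lay within the range of the fluorescent regions, and the other 3 sinus arrays lay well under it. The bladder exceeded the sinus by 0.85 (SE 0.38, adjusted p = 0.283). Without sinus replicate 1 this difference was 1.24 (adjusted p = 0.0115) and passed the test.

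Vcl encodes vinculin, which couples integrin complexes and cadherin junctions to actin. Its intensities were 15.03, 14.89 and 15.10 in the bladder, 14.19, 13.86, 13.41 and 13.86 in the sinus, and 14.74, 14.46 and 14.62 in the urethra. The 3 regions did not overlap, with the bladder highest and the sinus lowest. The bladder mean of 15.01 ± 0.11 (SD, n = 3) was above the sinus mean of 13.83 ± 0.32 (SD, n = 4) by 1.18 (SE 0.20, adjusted p = 0.0207), or 2.26-fold. The dimmer Vcl probe set (1416157_at) differed by 0.16 (SE 0.64), from 8.36 in the sinus to 8.52 in the bladder.

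Tpm1 encodes alpha-tropomyosin, which lies along actin filaments, and the gene yields many transcripts by alternative splicing. The probe set shown gave 13.09, 13.42 and 12.98 in the bladder, 11.46, 11.28, 11.41 and 12.21 in the sinus, and 11.00, 13.81 and 12.87 in the urethra. Bladder and sinus did not overlap, while urethra replicate 1 was the lowest of all 10 region arrays and urethra replicate 2 the highest. The difference between bladder and sinus was 1.57 (SE 0.55, adjusted p = 0.179, 95% interval 0.34 to 2.80), and the next brightest Tpm1 probe set (1423721_at) gave 1.62 (SE 0.36, adjusted p = 0.0733). The remaining Tpm1 probe sets gave 0.11 and -0.13.

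The calls for Synpo2 and Vcl changed when single arrays were left out, as did those over all genes. Leaving out bladder replicate 2, 6 or 8, or sinus replicate 2 or 6, left 0 of 7 members called, with differences of 1.55 to 1.77 for Synpo2 and 1.04 to 1.23 for Vcl. Calls over all genes went from 382 to 49, 46, 193, 132 and 125 in these fits. Leaving out sinus replicate 1 left Vcl called, took Synpo2 to an adjusted p of 0.0521 and brought in Pgm5 and Flna. In that fit 647 of all genes were called. Over the 16 probe sets tested on their own, 15 differences were positive and 1 was called (Vcl, adjusted p = 0.0344), beside 0.963% of all probe sets. Between urethra and sinus all 16 were positive and 0 were called, beside 0.00604%. The split of all calls depended on the scaling. It was 122 higher and 260 lower as deposited, 138 higher and 35 lower with each array centred on its median, and 97 higher and 98 lower after quantile normalization. The median of all genes moved from -0.19 to 0.38 and 0.04 under these scalings, and 4 members (Srf and Pgm5 in addition) and 1 member (Vcl) were called.

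**Figure D2:**
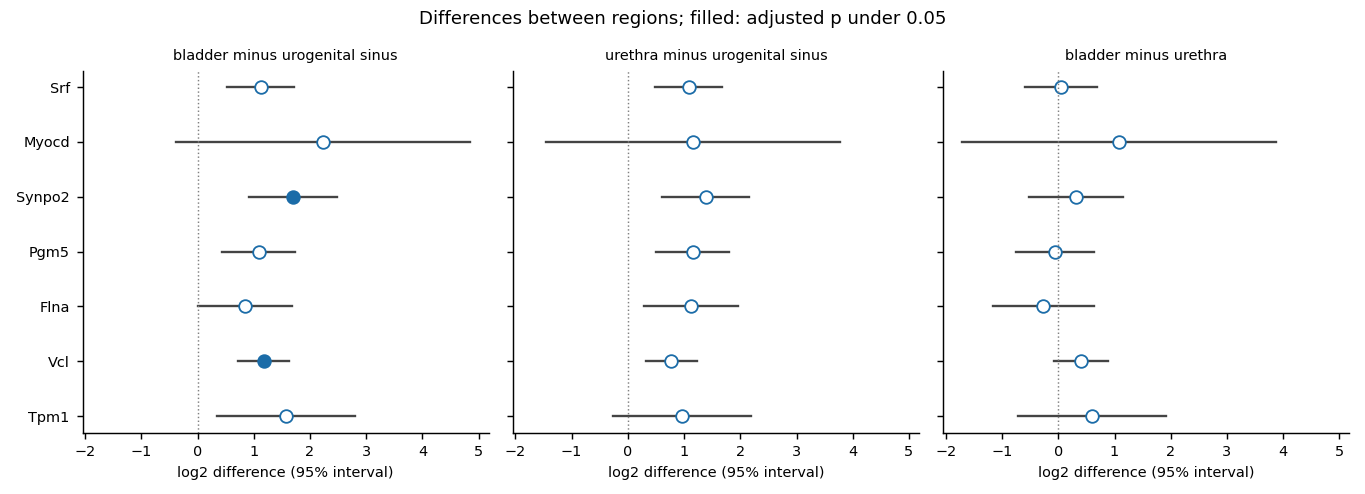
Log2 difference (x axis) of each gene between regions, with its 95% interval before adjustment, in a panel for each pair of regions, where filled circles mark an adjusted p under 0.05. In the panels against the sinus all 7 differences are above 0, from 0.85 to 2.24 for the bladder and from 0.78 to 1.38 for the urethra, and in the panel of bladder minus urethra all intervals include 0.

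The urethra, the other fluorescent region, was compared with the same sinus arrays, so its differences and those of the bladder share their controls. All 7 members had higher means in the urethra, by 0.78 to 1.38, and 0 of 7 were called, beside 0.0133% of all genes (2 genes). At an unadjusted p under 0.05, 5 of 7 members passed (Srf, Synpo2, Pgm5, Flna and Vcl), beside 10.4% of all genes. Synpo2 had the largest difference, 1.38 (SE 0.35, adjusted p = 0.215, 95% interval 0.60 to 2.16), and Vcl the smallest, 0.78 (SE 0.20, adjusted p = 0.230, interval 0.32 to 1.23). Urethra and sinus did not overlap for Srf, Pgm5 and Vcl, beside 4.9% of all genes.

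Urethra replicate 1 was set apart from the other urethra arrays in the regulators and in Tpm1. It deviated from each gene's mean over the 10 region arrays by -2.77 in Myocd, -1.35 in Tpm1 and -0.26 in Srf, where the other urethra arrays lay above the mean in all 3 genes, while its Flna and Vcl values were the highest of the urethra. This is the array with a beta-actin ratio of 3.42, against 1.34 on the other urethra arrays. Bladder replicate 8, with a ratio of 4.04, deviated by -0.12 in Myocd, 0.63 in Tpm1 and 0.36 in Srf. The part of RNA length in these deviations was not tested. Without urethra replicate 1 the Myocd difference from the sinus was 2.62 instead of 1.16, and 0 members and 0 of all genes were called. Without sinus replicate 1, Flna was called higher in the urethra (1.51, adjusted p = 0.0480), where 22 of all genes were called. The mean of bladder and urethra differed from the sinus by 0.98 to 1.70 over the members, again with 0 of 7 called beside 0.313% of all genes, 6 at an unadjusted p under 0.05 (10.2%) and 3 not overlapping (0.772%; Srf, Pgm5 and Vcl), and the lowest adjusted p was that of Vcl (0.98, SE 0.17, adjusted p = 0.0538). All calls in that comparison split into 18 higher and 29 lower, into 12 and 3 with arrays centred on their medians, and into 13 and 7 after quantile normalization. In that comparison leaving out sinus replicate 1 called Pgm5, Flna and Vcl, leaving out sinus replicate 7 called Synpo2, and leaving out urethra replicate 1 called Srf. Calls over all genes in these fits were 267, 15 and 44.

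Between the bladder and the urethra, the 2 fluorescent regions, no member was called, beside 4.33% of all genes called in either direction, and 0 of 7 members had an unadjusted p under 0.05, beside 24.3% of all genes. The differences ran from -0.27 for Flna to 1.07 for Myocd. Without urethra replicate 1, Myocd (-0.38), Tpm1 (-0.17) and Srf (-0.30) turned to the urethra's side, and 2 of 7 differences were above 0. Centring arrays on their medians turned Flna (0.20) and Pgm5 (0.41) to the bladder's side, quantile normalization turned Srf (-0.08), and the split of all calls went from 257 higher and 394 lower to 176 and 58 and to 219 and 169. With title style as a block, a fit that ties the urethra to the other regions only through the reference arrays, 4 genes were called higher and 51 lower. Vcl came closest, at 0.40 (SE 0.22, adjusted p = 0.279, 95% interval -0.08 to 0.89), and was the only member whose bladder and urethra arrays did not overlap, beside 12% of all genes higher in the bladder without overlap. For Srf the difference was 0.04 (95% interval -0.59 to 0.68) and for Pgm5 it was -0.06 (interval -0.76 to 0.63). Differences within these intervals, which are before adjustment, are not excluded by these arrays. For Myocd the interval from -1.72 to 3.87 leaves a much wider range.

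**Figure D3:**
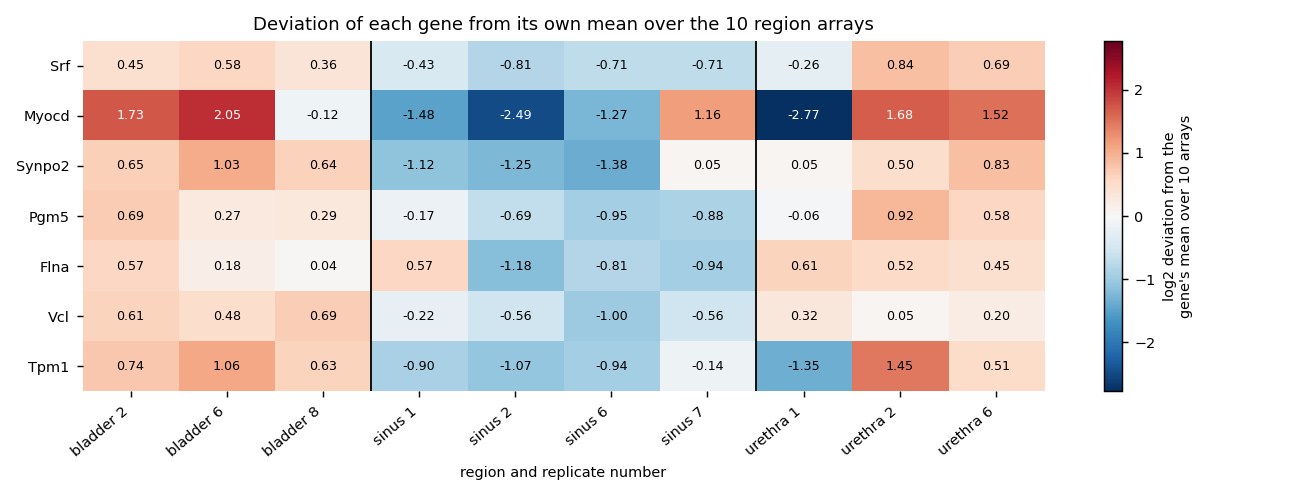
Deviation of each gene (rows) on each of the 10 region arrays (columns) from the gene's own mean over these arrays, as a log2 difference given in each cell and as colour, with lines between the regions. Sinus replicates 2 and 6 lie under the mean for all 7 genes, bladder replicates 2 and 6 and urethra replicates 2 and 6 lie above it for all 7, and urethra replicate 1 reaches -2.77 for Myocd.

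Array by array, the members lay on the same side of their means on some samples and on different sides on others. On bladder replicates 2 and 6 and urethra replicates 2 and 6 all 7 genes lay above their own mean over the 10 region arrays, and on sinus replicates 2 and 6 all 7 lay under it. On sinus replicate 1 only Flna lay above its mean, by 0.57. On sinus replicate 7 only Myocd (by 1.16) and Synpo2 (by 0.05) did. The same array had the highest sinus level of Actg2, 10.77 against 7.99 to 9.31 on the other sinus arrays. Mylk, the myosin light chain kinase, was also highest there, at 15.43 against 13.36 to 13.76. Among other contractile genes, Acta2, Myh11, Tagln, Cnn1 and Lmod1 were highest of the sinus on this array too. Smtn (8.33) and Cald1 (14.11) were lowest of the sinus on it, and Myl9 and Des were neither. The part of these differences between sinus samples in the results was not tested.

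The genes most like each member were named by the root mean square (RMS) difference between log2 profiles over the 10 region arrays, each centred on its own mean. These distances are descriptions of the same 10 arrays, in which genes share array effects such as intensity and RNA length. The nearest gene to Srf among all genes tested was Pgm5, and the nearest to Pgm5 was Srf, with an RMS difference of 0.20 where the median over all genes was 0.86. Bves, a membrane protein of muscle, was among the 3 nearest of both, at 0.21. Traf5 completed the group around Srf and Emilin3 that around Pgm5.

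Synpo2 lay nearest to Mylk (0.26), Mtcl1 (0.29) and Ppp1r12b (0.34), the last a regulatory subunit of myosin phosphatase, where the median over all genes was 1.09. Flna lay nearest to Cald1, the actin-binding protein caldesmon (0.27), followed by Sec31a and Lgr6. Around Vcl were Khdrbs3, Tacc3 and Cdc45, at 0.21 to 0.23. Around Tpm1 were Hmgn5, P2ry1 and Fhl2, at 0.39 to 0.43. Around Myocd were Rbm46, Cpb1 and Tspan2, at 0.76 to 0.91, where the median over all genes was 1.91. Srf was gene 218 in the order of distance from Myocd, at 1.39, and Tpm1, at 0.99, was gene 5.

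Other genes of the pathway were taken from lists and read from the same fits. Of 25 tested cofactors of SRF and regulators of smooth muscle, 3 were higher in the bladder than in the sinus and 22 were not called. These were Klf4 (2.33, SE 0.29, adjusted p = 0.00572), a zinc finger factor, Hopx (2.20, SE 0.32, adjusted p = 0.0119), a homeodomain-only protein that binds SRF, and Fhl1 (1.31, SE 0.26, adjusted p = 0.0360), a LIM protein of muscle. Their list had a median of 0.12, where all genes had -0.19. Of 32 focal adhesion and dense plaque genes, Cav1 (1.71, SE 0.19, adjusted p = 0.00397) and Cavin1 (1.09, SE 0.24, adjusted p = 0.0472), which build caveolae, were higher in the bladder and 30 were not called, with a median of 0.34.

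Relatives of the members gave 1 call among 11 tested. It was Tpm2, beta-tropomyosin, higher in the bladder by 2.12 (SE 0.41, adjusted p = 0.0314), beside Tpm1 at 1.57, which was not called. Of 11 contractile genes 6 were higher in the bladder and 5 were not called. The 6 were led by Actg2 (4.41, SE 0.54, adjusted p = 0.00552), Tagln (3.90, SE 0.59, adjusted p = 0.0123), Myh11 (4.62, SE 0.78, adjusted p = 0.0186) and Acta2 (2.37, SE 0.44, adjusted p = 0.0262). Des, the muscle intermediate filament desmin, was the only contractile gene with a difference under 0 (-2.30, SE 0.58, adjusted p = 0.0740, not called). It stood at 7.20, 6.24 and 5.65 in the bladder and 9.79, 8.52, 7.83 and 8.49 in the sinus. These ranges did not overlap, beside 10.6% of all genes lower in the bladder without overlap. All bladder values of Des were under the filter level of 7.39, and bladder replicate 8 was at the floor. The size of its difference is therefore uncertain. The contractile median of 2.37 was above the members' median of 1.18. Actg2 drives the transgene by which the tissue was dissected. Of 11 early serum response genes, which SRF also regulates through other partners, 0 were called, with a median of -0.07, and Ccn2 had the smallest p (2.31, SE 0.60, adjusted p = 0.0794).

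**Figure D4:**
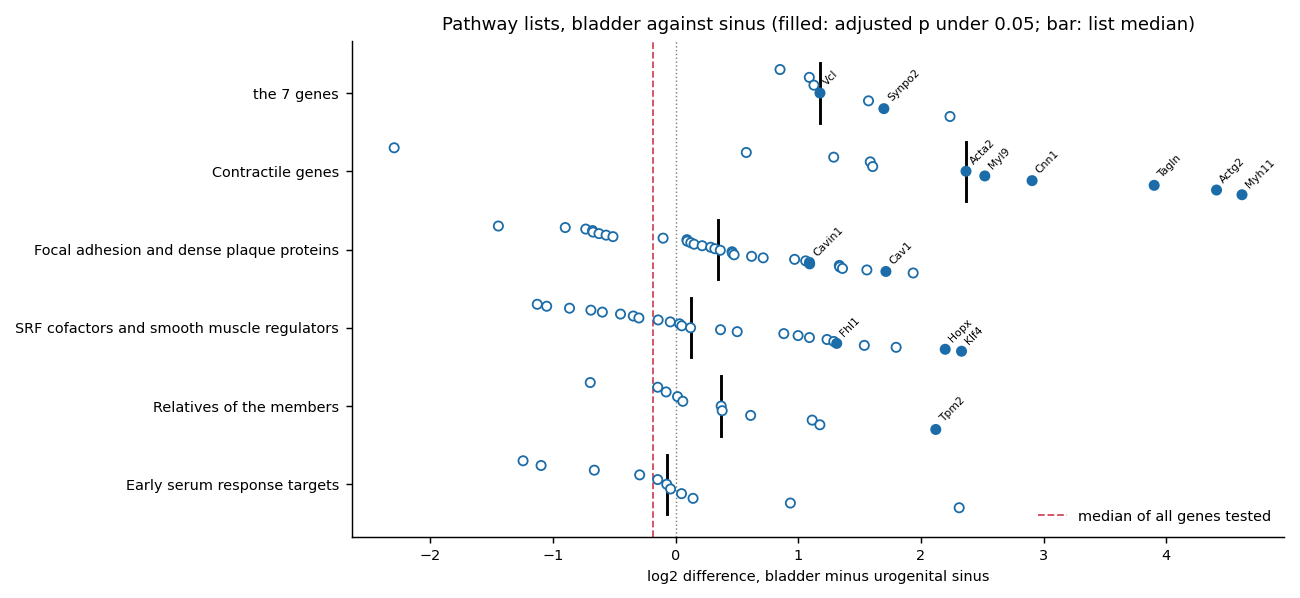
Log2 difference between bladder and sinus (x axis) of the 7 genes and of the tested genes of 5 pathway lists (y axis), with filled circles for an adjusted p under 0.05, a bar at each median and a dashed line at the median of all genes tested (-0.19). All 7 members lie above 0, and the list medians run from -0.07 for early serum response genes to 2.37 for contractile genes.

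Between the bladder and the urethra, where 4.33% of all genes were called, 7 of the 25 SRF cofactors and regulators were higher in the bladder, 2 were lower and 16 were not called. The smallest p-values were those of Hopx (2.01, SE 0.35, adjusted p = 0.0167), Tbx18 (5.37, SE 0.97, adjusted p = 0.0196), Gata6 (3.48, SE 0.63, adjusted p = 0.0196) and Klf4 (1.65, SE 0.31, adjusted p = 0.0214). Among focal adhesion genes Cav1 (1.17, SE 0.21, adjusted p = 0.0170) and the integrin subunit Itgb1 (1.59, SE 0.37, adjusted p = 0.0435) were higher, 2 of 32. The log2 sums of 3 mesothelial markers moved with this comparison, with 8.29, 9.996 and 6.96 on urethra replicates 1, 2 and 6, against 11.42 to 11.82 for bladder and 10.48 to 11.58 for sinus arrays. So did those of the 5 endothelial markers, with 12.44 to 12.79 on urethra arrays, against 13.53 to 13.76 for bladder arrays. Only Kdr and Tek among them were higher in the bladder without overlap. Cdh5 stood at 11.28, 10.75 and 11.35 in the bladder and 12.26, 11.40 and 11.31 in the urethra. Tie1 stood at 6.97, 6.42 and 7.82 in the bladder and 8.84, 7.40 and 8.63 in the urethra. Both leaned the other way, and Pecam1 overlapped. The part of the mesothelial and endothelial markers in these calls was not tested. Of relatives, contractile genes and early serum response genes, 0 of 11 were called in each list. Between urethra and sinus 0 genes of these 5 lists were called, with the smallest p in each for Tbx18 (-4.08, SE 0.91, adjusted p = 0.189), Pdlim3 (1.37, SE 0.35, adjusted p = 0.216), Tpm4 (0.85, SE 0.19, adjusted p = 0.189), Actg2 (4.05, SE 0.54, adjusted p = 0.0827) and Ier2 (1.04, SE 0.57, adjusted p = 0.566).

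The newborn reference sets the embryonic regions beside RNA of a whole animal, in which skeletal and cardiac muscle add to the smooth muscle. The summed log2 intensity of 12 skeletal muscle markers was 18.17 to 18.57 in the reference and 11.18 to 12.73 on the region arrays, except for 14.80 on urethra replicate 2, and 8 of the 12 passed the filter level on at least 3 region arrays. For 7 cardiac markers it was 15.67 to 16.07 in the reference, 12.58 to 13.37 on bladder arrays and 9.13 to 10.83 on those of the other regions. In the bladder that sum came mainly from Tnnt2 (13.28, 12.70 and 12.48), with Myh6, Nppa and Myl7 between the floor of 5.65 and 6.41. The part of these markers in the results was not tested. The mean of the 3 reference arrays entered as 1 sample, and the 3 comparisons share it. Bladder arrays lay above all 3 reference arrays for 19.7% of all genes and under them for 31.3%. These shares were 13.2% and 18.7% in the sinus and 19.3% and 21.6% in the urethra.

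Myocd stood at 5.65, 7.90 and 7.93 in the reference, far under every region array, and reference replicate 1 was at the floor. It was higher in the bladder by 7.12 (SE 1.77, adjusted p = 0.0223), and the bladder call was lost without bladder replicate 2 (adjusted p = 0.0526) or 6 (adjusted p = 0.0573). The size depends on the floor and was 6.54 with the floor at the 40th percentile. Sinus and urethra differed from the reference by 4.88 (adjusted p = 0.0968) and 6.04 (adjusted p = 0.0513), which were not called. The dimmer Myocd probe set stood at 6.36, 5.65 and 6.49 in the reference, under the filter level of 7.39 on all 3 arrays, as it did on all 4 sinus arrays, so no difference is given for it.

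Pgm5 had 9.75, 10.24 and 9.19 in the reference, under all 10 region arrays. It was higher in the bladder by 2.50 (SE 0.44, adjusted p = 0.00394) and in the urethra by 2.57 (SE 0.44, adjusted p = 0.00399), and in the sinus the difference was 1.41 (SE 0.43, adjusted p = 0.0577). Synpo2 had 11.19, 10.96 and 10.57 in the reference, likewise under all region arrays, and was higher in the bladder by 3.26 (SE 0.53, adjusted p = 0.00236) and in the urethra by 2.94 (SE 0.53, adjusted p = 0.00487). In all, 3 members were called higher in the bladder than in the reference, beside 5.82% of all genes called higher and 17% called in either direction. In the urethra 2 were higher, beside 4.36%, and 1 lower, beside 8.87%, of 13.2% called in all. In the sinus 1 member was called, lower, beside 9.2%, of 13.8% called in all. All calls in the bladder split into 874 higher and 1683 lower, into 1136 and 966 with arrays centred on their medians, and into 1055 and 1226 after quantile normalization.

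Tpm1 ran the other way, at 15.52, 15.64 and 16.06 in the reference, above all region arrays. It was lower in the sinus (-4.15, SE 0.81, adjusted p = 0.00705) and in the urethra (-3.18, SE 0.83, adjusted p = 0.0319), and the bladder difference was -2.57 (SE 0.83, adjusted p = 0.0617). The urethra call was lost without urethra replicate 6 (adjusted p = 0.0545), after quantile normalization (adjusted p = 0.0534) and without a filter (adjusted p = 0.0501). Srf (12.08, 11.26 and 11.43), Flna (12.63, 12.79 and 12.73) and Vcl (15.10, 14.78 and 14.20) were not called in any region. Srf reference values overlapped the sinus range, and Vcl reference values spanned from the top of the sinus range to that of the bladder. For Flna the reference lay under every bladder and urethra array, with differences of 1.41 (adjusted p = 0.123) and 1.67 (adjusted p = 0.0866). Such separation held for 19.7% of all genes in the bladder and 19.3% in the urethra.

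Leaving out an array changed the members called against the reference in several cases. Calls over all genes changed too. Without reference replicate 1 they went from 2557 to 3159 in the bladder and from 1987 to 2275 in the urethra. In the sinus they went from 2076 to 2472. Urethra calls over all genes were 1750 without urethra replicate 1, and 2132 or 1916 without reference replicate 2 or 3. Without reference replicate 1, Srf (1.53, adjusted p = 0.0253) and Tpm1 (-2.68, adjusted p = 0.0461) joined the calls in the bladder, Srf joined in the urethra, and Synpo2 and Pgm5 in the sinus. Without urethra replicate 1, Srf (1.58, adjusted p = 0.00691) and Myocd (7.50, adjusted p = 0.00802) were called higher in the urethra, and without reference replicate 2 or 3 Myocd was. In the sinus, where 1 member was called, Vcl joined without sinus replicate 1 or reference replicate 3, Synpo2 without sinus replicate 7, and Pgm5 without reference replicate 2. Calls over all genes in these fits were 2731, 1874, 1813 and 2222.

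**Figure D5:**
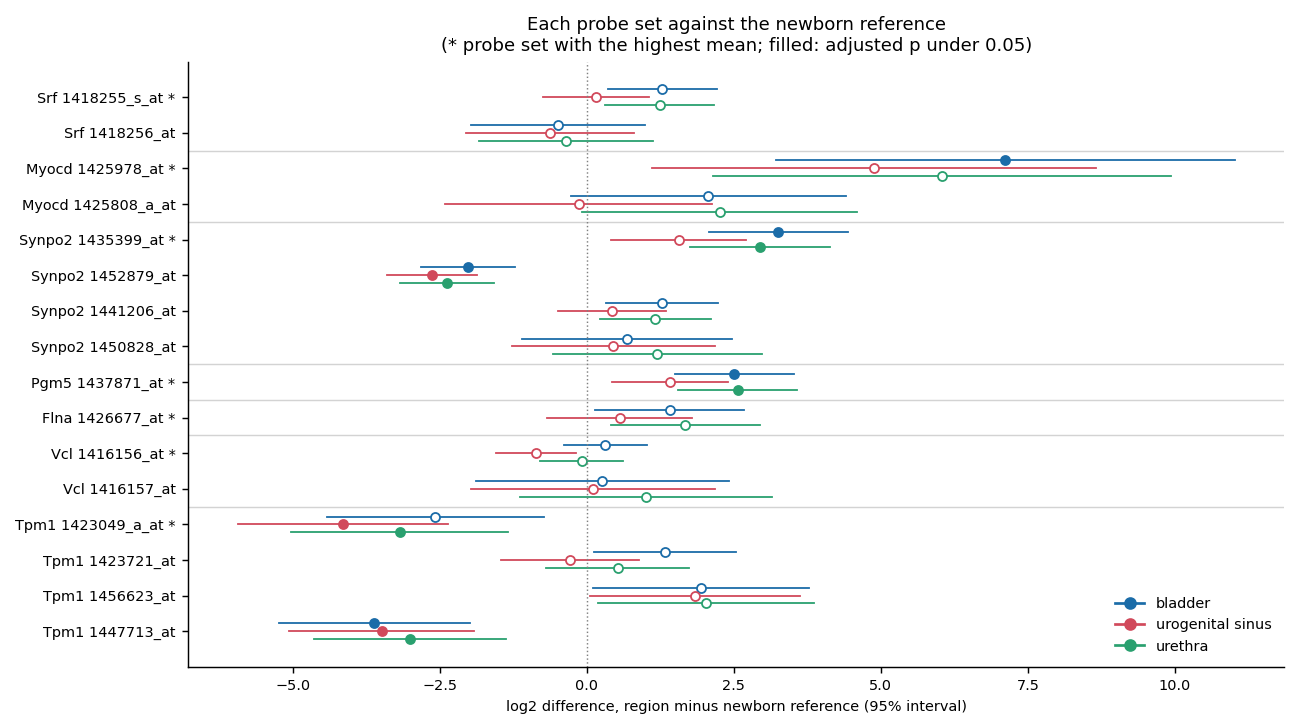
Log2 difference of each region from the newborn reference (x axis) for all 16 probe sets (y axis, grouped by gene, with an asterisk on the probe set with the highest mean), with 95% intervals before adjustment and filled circles for an adjusted p under 0.05 over all probe sets. For Synpo2 the probe set 1435399_at lies above 0 in every region and 1452879_at lies under 0, and for Tpm1 2 probe sets lie under 0 while 1456623_at lies above it.

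Probe sets of the same gene gave opposite directions against the reference for Synpo2 and Tpm1. Of the Synpo2 probe sets, 1452879_at stood at 13.20, 12.68 and 13.18 in the reference and at 10.15 to 11.13 on the region arrays. It was lower than the reference in the bladder (-2.02, SE 0.36, adjusted p = 0.00592), the sinus (-2.63, SE 0.35, adjusted p = 0.000958) and the urethra (-2.38, SE 0.36, adjusted p = 0.00250). The probe set 1435399_at was higher in the bladder and the urethra and not called in the sinus. The remaining Synpo2 probe sets had differences of 0.43 to 1.27, none called. The annotation table names only the gene, so which transcript each probe set reads is not given here.

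Of the Tpm1 probe sets, 1447713_at was lower than the reference in the bladder (-3.61, SE 0.73, adjusted p = 0.0121), the sinus (-3.49, SE 0.71, adjusted p = 0.0134) and the urethra (-3.01, SE 0.73, adjusted p = 0.0346). It stood at 7.48, 7.21 and 6.98 in the bladder and at 8.58, 6.94, 6.93 and 6.95 in the sinus. Most of these values were under the filter level of 7.39, so the sizes of the bladder and sinus differences are uncertain. The probe set 1456623_at had differences of 1.94, 1.83 and 2.03 in these regions, and 1423721_at had 1.33, -0.29 and 0.52, none called. In the reference 1456623_at stood at 7.29, 9.01 and 7.12, with replicates 1 and 3 under the filter level. The direction of Tpm1 relative to the newborn animal differed between probe sets, while between bladder and sinus the pair of brightest probe sets differed by nearly the same amount. Of the 16 probe sets, 3 were called higher and 2 lower in the bladder (beside 9.41% of all probe sets called), 0 and 3 in the sinus (7.39%), and 2 and 3 in the urethra (7.16%).

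In the pathway lists against the reference, calls went in both directions. Of 25 SRF cofactors and regulators, 2 were higher and 1 lower in the bladder, 1 higher and 3 lower in the sinus, and 3 higher and 4 lower in the urethra, beside 17%, 13.8% and 13.2% of all genes called in these regions. Foxf1, a forkhead factor of visceral mesenchyme, was higher in all 3 regions (4.03 in the bladder, 2.94 in the sinus and 3.47 in the urethra), and Fhl1 was lower in all 3 (-1.80, -3.12 and -3.11). Of 32 focal adhesion genes, Pdlim7 was higher in the 3 regions (2.31, 1.59 and 2.43) and Ldb3, a protein of the striated muscle Z-disc, lower (-5.48, -7.42 and -6.45). Among the relatives, Synpo2l, the striated muscle relative of Synpo2, was lower (-6.30, -5.61 and -5.63), as was Pgm1 (-1.82, -2.93 and -1.87). Of the 11 contractile genes, Des was lower in all 3 (-5.25, -2.95 and -3.55), with 0 higher. It was the only one called in the bladder and the urethra, where the medians were 0.49 and 0.50. In the sinus 4 were called lower, Actg2 (-4.33), Tagln (-3.28), Smtn (-1.92) and Des, all 11 differences were under 0 and the median was -2.15. Of the early serum response genes, Egr3 (-4.65, -5.59 and -5.68) and Fos (-2.26, -2.11 and -2.04) were lower in all 3, with 0 higher.

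Theiler stage 22 was compared with stage 21 within the regions, with region as a covariate. Among the members 0 were called, and 0 of all genes (0%) were called although 3830 genes (25.5%), and 0 members, had an unadjusted p under 0.05. The differences ran from -0.41 for Flna (SE 0.30) to 1.20 for Myocd (SE 0.97, adjusted p = 0.479, 95% interval -1.01 to 3.41). The lowest adjusted p was that of Synpo2, 0.43 (SE 0.27, adjusted p = 0.345, interval -0.18 to 1.05).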

How the data were processed

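Signal was read on 13 arrays from 1 linear intensity per probe set (45101 in all), as the authors deposited it. GCOS, the Affymetrix software, is named per the submitters' processing notes, and no further step is given in the sources used here. Every deposited intensity column had a trimmed mean of 1500 (2% off each end), so none was rescaled, which fixes neither the median nor the 3' bias that amplification brings.

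Intensities were floored at the 20th percentile (50.23) and log2 transformed. Probe sets were kept with at least 3 arrays above the 40th percentile (167.76). GEO's platform annotation, which can be old, gave 1 symbol to 34945 probe sets, several to 932 and none to 9160, with 64 controls left out. Each gene was read from its brightest probe set by mean. With limma 3.58.1 (R 4.3.3; lmFit, then eBayes with an intensity trend), models were fitted to all 15019 genes over the 10 region arrays. For the newborn, the mean of the 3 reference arrays entered as 1 sample, assumed to vary like the region samples. The script was tested on simulated data. Alternatives covered scaling, floor, filter, probe set choice, limma settings, blocks, stage and single arrays left out, and a test of each probe set on its own was added after the data were seen. The members, the gene lists and the rule for naming genes were chosen with earlier results of these data known. That rule names the 7 members, the 3 nearest genes of each, and per list and comparison at most 4 called genes with the smallest adjusted p, or the gene with the smallest p.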

Additional observations from a re-analysis of the deposited data

Results flagged for a closer look

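In the sinus group of 4 arrays, an array far from the other 3 was looked for in each of the 16 probe sets (Dixon's test of the gap over the range, at 95%), and chance marks about 1 in 20 groups. The dimmer Myocd probe set (1425808_a_at) stood at 7.15 on sinus replicate 7, under the filter level of 7.39, while the other 3 sinus arrays were at the floor of 5.65. With 3 arrays tied at the floor, any value above it gives a gap over the range of 1. The test and its rate therefore cannot decide for this probe set. The dimmest Tpm1 probe set (1447713_at) stood at 8.58 on sinus replicate 1, against 6.93 to 6.95 on the other 3, which were under the filter level.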

How the results depend on the processing

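Of 1239 differences recomputed under alternatives, 1060 kept direction and side of the threshold, 32 were no longer called, 97 were newly called and 50 turned sign, 3 of these with an adjusted p under 0.05 (Synpo2 against the reference with the second brightest probe set). Between bladder and sinus all 7 members stayed above 0 under the 23 alternatives to the fit, although Myocd was -1.28 within 1 title style and the Tpm1 probe set 1447713_at on its own gave -0.13. Depth in the sense of signal over background limits the dimmer Myocd probe set and the reference values of Myocd. The causes of the changes were not tested.

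For bladder against sinus, the 2 members called became 1 after quantile normalization, 4 with arrays centred on their medians, 1 with the floor at the 40th percentile, 1 without a filter, 0 with the mean of probe sets, 0 with the second brightest probe set, 7 with array weights, 0 with the replicate number as a fixed block, and 0 to 3 with single arrays left out. Over all genes tested, 382 calls became 195, 173, 269, 235, 400, 171, 2668 and 132 in this order. With arrays left out they became 46 to 647. For urethra against sinus, 0 became 5 with array weights and 0 to 1 with arrays left out. All calls went from 2 to 664 and to between 0 and 22. For the mean of bladder and urethra, 0 became 2 without a floor, 1 with the filter at the 60th percentile, 2 with robust eBayes, 6 with array weights, 3 with a random replicate block, 1 with stage as covariate, and 0 to 3 with arrays left out. Here 47 calls over all genes became 75, 62, 95, 1579, 174 and 64, and 0 to 267 with arrays left out. Against the reference, the 3 called in the bladder became 2 with the mean of probe sets (Synpo2 lost, adjusted p = 0.196), 2 with the second brightest probe set (Myocd lost, adjusted p = 0.245, its reference values under the filter level), 5 centred on medians, 6 with array weights, 6 with title style as a block, 6 with the reference arrays as 3 samples, and 2 to 5 with arrays left out. All calls went from 2557 to 2374, 2049, 2102, 5791, 4249 and 5390, and to between 1776 and 3159 with arrays left out. In the sinus, 1 became 2 (quantile), 2 (centred), 2 (floor at the 40th percentile), 0 (mean of probe sets), 5 (array weights), 5 (title style), 3 (stage), 5 (reference as 3 samples) and 1 to 3 (arrays left out). There 2076 calls over all genes became 2199, 1327, 2652, 1953, 5270, 3357, 2622, 4327 and 1641 to 2731. In the urethra, 3 became 5 (centred), 2 (no filter), 1 (mean of probe sets), 2 (second probe set), 6 (array weights), 5 (title style), 6 (reference as 3 samples) and 2 to 5 (arrays left out). Its 1987 calls over all genes became 1300, 2355, 1887, 1642, 3867, 2997, 4196 and 1575 to 2275.

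Between bladder and urethra, Srf turned to -0.077 (quantile), -0.046 (mean of probe sets), -0.13 (second probe set), -0.041 (array weights), -0.023 (fixed replicate block) and -0.25 (title style), and ran from -0.30 to 0.25 with single arrays left out. Pgm5 turned to 0.41 (centred) and 0.032 (stage) and ran from -0.33 to 0.16 with arrays left out, and Flna turned to 0.20 (centred) and 0.13 (fixed replicate block). Vcl turned to -0.17 (mean of probe sets), -0.74 (second probe set) and -0.34 (title style), Myocd to -0.19 (second probe set) and Synpo2 to -0.12 (title style). With arrays left out Myocd ran from -0.38 to 1.85 and Tpm1 from -0.17 to 1.23, both lowest without urethra replicate 1. Between urethra and sinus, Myocd turned to -0.25 with title style as a block.

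Against the reference, the second brightest probe set gave, in the bladder, -0.49 for Srf, -2.02 for Synpo2 and 1.33 for Tpm1; in the sinus, -0.63 for Srf, -0.14 for Myocd, -2.63 for Synpo2 and 0.10 for Vcl; in the urethra, -0.36 for Srf, -2.38 for Synpo2, 1.00 for Vcl and 0.52 for Tpm1. The Myocd value of -0.14 sets sinus arrays beside reference arrays that were all under the filter level. The mean of probe sets gave -0.24 for Srf and -0.048 for Synpo2 in the sinus and 0.46 for Vcl in the urethra. In the sinus, Srf was -0.0011 with title style and ran from -0.011 to 0.40 with arrays left out. In the urethra, Vcl was 0.28 centred, 0.40 with title style and ran from -0.33 to 0.11 with arrays left out. Between stages, Vcl was 0.10 centred, Srf -0.31 and Tpm1 -0.16 with the mean of probe sets, Srf -0.70, Myocd -0.24 and Tpm1 -0.25 with the second probe set, and Srf ran from -0.072 to 0.18 with arrays left out.

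Some titles share a number across regions, and the labels do not say what it marks. The deviations of 7 pairs with the same number correlated between -0.17 and 0.36 (mean 0.15, 5 of 7 over 0.1), and those of 26 other pairs between -0.51 and 0.41 (mean -0.040). Of these correlations, 6 of the 7 and 13 of the 26 were above 0. So few pairs cannot decide whether the numbers pair the samples. The labels state no pairing, so the main fits hold no block, and the fits with a replicate block stand as alternatives.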
